A study of Rattus norvegicus with 22 samples.

Results

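The muscarinic acetylcholine receptors were examined on all 7 probe sets that the platform annotation gives the symbols Chrm1, Chrm2, Chrm3, Chrm4 or Chrm5, out of 1050 probe sets in the deposited table and 643 named genes. All 5 genes of the family were on the array, Chrm2 and Chrm3 with a pair of probe sets each, and every probe set was read on its own. The arrays were Affymetrix Rat Neurobiology U34 chips that carried RNA amplified from cells cut by laser from the lumbar ventral horn of neonatal Wistar rats. The 7 dCIN arrays (labelled CIN) held descending commissural interneurons, filled with rhodamine dextran from axons cut caudal to the segment. The 7 MN arrays held motor neurons filled with the same tracer from a cut ventral root. The 8 MIX arrays held cells taken at random from the ventral horn and are called control samples in the methods. Each array came from another animal. Labelled cells had therefore cut axons and spent hours in oxygenated Ringer solution at room temperature, and the label picks out cells by where the axon runs, not by transmitter.

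Muscarinic receptors are G protein-coupled receptors for acetylcholine. The proteins encoded by Chrm1, Chrm3 and Chrm5 couple mainly to Gq, which activates phospholipase C, releases calcium from internal stores and activates protein kinase C. Those encoded by Chrm2 and Chrm4 couple to Gi and Go, which inhibit adenylyl cyclase, open G protein-gated potassium channels and inhibit presynaptic calcium channels. In the ventral horn, motor neurons are cholinergic themselves and receive large cholinergic terminals, the C boutons, opposite which the Chrm2 product is clustered.

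The samples held 50 to 100 cells (dCIN), 55 to 250 (MN) and 95 to 187 (MIX). Signals in the table are Li-Wong summaries on a linear intensity scale, and log2 differences were tested with limma. A difference was called where its p, adjusted over the whole table after Benjamini and Hochberg, was under 0.1. Slc18a3, the vesicular acetylcholine transporter (U09211_at), ran from 55.8 to 1133 on dCIN arrays, 2692 to 5211 on MN arrays and 1672 to 3801 on MIX arrays. Slc32a1, the vesicular inhibitory amino acid transporter (AF030253_at), ran from 352 to 762 on dCIN arrays, 35.2 to 366 on MN arrays and 187 to 580 on MIX arrays. The summed signal of 7 motor neuron marker probe sets was 2738 to 4419 on dCIN arrays, 10925 to 12920 on MN arrays and 5258 to 10229 on MIX arrays, and that of 4 inhibitory interneuron probe sets 525 to 1106 on dCIN arrays, 150 to 489 on MN arrays and 393 to 811 on MIX arrays. For 6 astrocyte probe sets it was 1127 to 2020 on dCIN arrays, 827 to 1456 on MN arrays and 916 to 1982 on MIX arrays. Most of this sum came from 1 probe set, S53527mRNA_s_at of S100b, with means of 1103, 771 and 1198 in dCINs, MNs and MIX. Of oligodendrocyte markers, 4 of 6 were measured (sums of 491 to 700 on dCIN arrays, 500 to 772 on MN arrays and 372 to 787 on MIX arrays), of microglial and leukocyte markers 1 of 5, and of vessel markers none of 5. The oligodendrocyte marker Mbp (K00512_at) ran from 34.2 to 42.7 on dCIN arrays, 30.0 to 41.8 on MN arrays and 30.8 to 45.5 on MIX arrays. Chat, Gad1, Gad2 and Gfap were not named in the annotation used here. The paper itself does report Gfap, at very low intensity and unchanged between MNs and dCINs. The median correlation of an array with the other arrays was under 0.9 on 4 arrays (MN 1, MN 2, MIX 5 and MIX 7) and at least 0.913 on the others. Results that turn on these arrays are given with and without them.

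No muscarinic receptor probe set separated the cell groups. Between dCINs and MNs, 0 of the 7 were called, and 0 had an unadjusted limma p under 0.05, where over all probe sets 3.81% were called and 10.9% had an unadjusted p under 0.05. Between dCINs and MIX the counts were again 0 and 0 of 7 (0.476% and 7.14% over all probe sets), and between MNs and MIX 0 and 0 of 7 (0.952% and 11.8%). For all 7 probe sets the ranges of the groups overlapped in every comparison. Of all 1050 probe sets, 17 did not overlap between dCINs and MNs, 2 between dCINs and MIX and 2 between MNs and MIX. With shares this low over the whole table, a count of 0 among 7 lies near the background and is not a result about these receptors. What the arrays do give is a limit on how far each signal could differ. In the 95% intervals the largest difference allowed between dCINs and MNs in either direction ran from 1.19-fold (Chrm3, AB017656_s_at) to 1.81-fold (Chrm3, M16407_at), between dCINs and MIX from 1.21-fold to 1.79-fold, and between MNs and MIX from 1.26-fold to 2.19-fold. These limits are those of the main fits and move with the arrays used. Without MIX array 7 the MN minus MIX interval of M16407_at reached -1.20 on the log2 scale, beside -1.13 with it. The limits are folds of array signal, and for dim probe sets a signal fold can be smaller than the RNA fold. Only 1 of the 7 probe sets, M16407_at of Chrm3, had a mean log2 signal of at least 6 over the 22 arrays, a level that 361 of all 1050 probe sets reached. Mbp (K00512_at), which the paper takes as not expressed in these samples, averaged 37.0, 36.0 and 37.4 on dCIN, MN and MIX arrays. Apart from M16407_at, the receptor probe sets had group means of 17.1 to 61.4, and whether these exceed background was not tested. For them the limits hold for signal and may not bound receptor RNA.

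**Figure D1:**
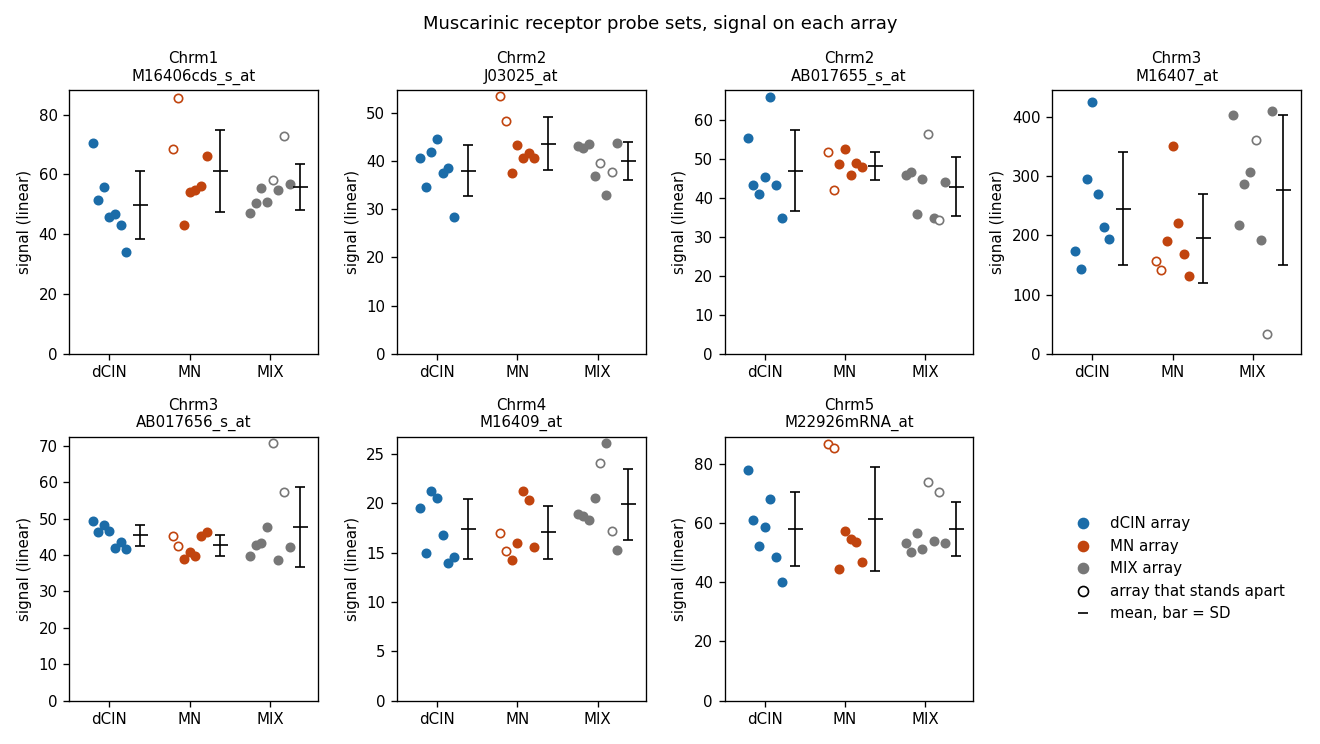
Signal (linear intensity, axis from 0) of each Chrm probe set on every array, in the order of the array numbers within dCIN, MN and MIX, with the mean and SD of each group beside the points. Open circles are the 4 arrays whose median correlation with the others was under 0.9, and the groups overlap in every panel.

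Of the Gq-coupled members, Chrm3 on M16407_at varied most. This gene encodes the M3 receptor, best known from glands and smooth muscle. In dCINs its signal was 174, 143, 296, 426, 269, 214 and 194 on arrays 1 to 7. In MNs it was 157, 142, 190, 352, 222, 169 and 131. On the MIX arrays it was 404, 217, 287, 306, 361, 193, 33.7 and 411. A single dCIN array (array 4) exceeded every MN array, and MIX array 7 lay below every other array of the series. The group means were 245 ± 95.4 for dCINs, 195 ± 75.6 for MNs (SD, n = 7 each) and 277 ± 126 on MIX arrays (SD, n = 8). The dCIN minus MN difference was 0.32 on the log2 scale (SE 0.25, 95% interval -0.21 to 0.85), with an adjusted p of 0.716 and a two-sided exact permutation p of 0.254. Without MN 1 and MN 2 it was 0.20 (-0.39 to 0.79, adjusted p 0.909), and with single arrays left out it ran from 0.18 (without dCIN 4) to 0.48 (without MN 4). Against MIX, the differences were 0.02 for dCINs (-0.81 to 0.84, adjusted p 0.996) and -0.31 for MNs (-1.13 to 0.52, adjusted p 0.741). MIX array 7 moved both of these more than any other single array. Without it the dCIN minus MIX difference was -0.38 (-0.88 to 0.13, adjusted p 0.951). The MN minus MIX difference was then -0.70, with an interval that did not hold 0 (-1.20 to -0.20, unadjusted limma p 0.00863, adjusted p 0.241). Without all 4 arrays that stand apart the differences were -0.33 for dCINs (-0.87 to 0.20) and -0.53 for MNs (-1.12 to 0.05). The whole-array median signal of MIX array 7 was 48.1, inside the range of the other arrays. Since all arrays were normalized to a shared distribution, that median says little about the array. Its median correlation with the other arrays was 0.861.

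The other Chrm3 probe set, AB017656_s_at, was the steadiest of the 7 within dCINs and MNs. It had a lowest, median and highest signal of 41.8, 46.3 and 49.3 in dCINs, 39.1, 42.4 and 46.4 in MNs, and 38.6, 43.0 and 70.7 on MIX arrays. On 3 of the 7 dCIN arrays it lay above every MN array, and its highest MIX values, 70.7 and 57.4, were on MIX arrays 5 and 7. For dCIN minus MN the difference was 0.09 (SE 0.08, 95% interval -0.08 to 0.25, adjusted p 0.721, exact permutation p 0.115). Against MIX it was -0.05 for dCINs (-0.27 to 0.18) and -0.14 for MNs (-0.36 to 0.09), and without the 4 arrays that stand apart 0.10 (-0.06 to 0.26) and 0.00 (-0.18 to 0.17), with adjusted p of 0.860 and 0.999. The pair of Chrm3 probe sets did not follow each other. They lay on the same side of their medians on 8 of 22 arrays (Pearson's r -0.21, and -0.14 over the 18 arrays without those 4), so no single Chrm3 pattern can be read from them.

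Chrm1 encodes the M1 receptor, the main muscarinic receptor of forebrain principal neurons, and was read by M16406cds_s_at. The lowest, median and highest signals were 34.2, 46.7 and 70.4 in dCINs, 43.0, 56.2 and 85.6 in MNs, and 47.0, 55.2 and 72.8 on MIX arrays. Only dCIN array 7 lay below every MN array, while 4 of 7 dCIN arrays lay below every MIX array. Means were 49.6 ± 11.4 in dCINs, 61.2 ± 13.7 in MNs and 55.8 ± 7.82 on MIX arrays (SD, n = 7, 7 and 8). The dCIN minus MN difference was -0.30 (SE 0.16, 95% interval -0.65 to 0.05), with an adjusted p of 0.579 and an exact permutation p of 0.108. The highest MN values, 85.6 and 68.4, were on arrays MN 2 and MN 1, and without the arrays that stand apart the difference was -0.16 (-0.51 to 0.18, adjusted p 0.795). With single arrays left out it ran from -0.39 (without dCIN 1) to -0.22 (without MN 2). The interval lay below 0 without dCIN 1 and without MN 3 (unadjusted limma p 0.0239 and 0.0309, adjusted p 0.275 and 0.318). It also did with a covariate for arrays 1 and 2 against 3 to 7 (-0.57 to -0.04, unadjusted limma p 0.0284, adjusted p 0.217). Against MIX the differences were -0.19 for dCINs (-0.49 to 0.11, adjusted p 0.940) and 0.11 for MNs (-0.18 to 0.41, adjusted p 0.736).

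Chrm5 encodes the M5 receptor, known from midbrain dopamine neurons. Its probe set M22926mRNA_at gave 78.0, 60.9, 52.4, 58.7, 68.2, 48.5 and 40.2 on dCIN arrays 1 to 7, and 86.8, 85.5, 44.5, 57.5, 54.7, 53.7 and 46.8 on MN arrays 1 to 7. On MIX arrays its lowest, median and highest signals were 50.1, 53.7 and 73.9. The highest MN and MIX values were again on the arrays that stand apart, since MN 1 and MN 2 lay above every dCIN and MIX array, and the remaining MN arrays did not exceed 57.5. For dCIN minus MN the difference was -0.06 (SE 0.18, 95% interval -0.45 to 0.32, adjusted p 0.923, exact permutation p 0.750). Without the 4 arrays the sign turned, to 0.15 (-0.17 to 0.48, adjusted p 0.795), with MN values of 51.5 ± 5.54 (SD, n = 5) beside 58.1 ± 12.6 in dCINs (SD, n = 7). Against MIX the differences were -0.01 for dCINs (-0.34 to 0.32) and 0.05 for MNs (-0.28 to 0.38), and without the 4 arrays 0.10 and -0.05. Samples MN 1 and MN 2 also had the most cells, 250 and 230. With log2 cell number as a covariate the dCIN minus MN difference was 0.22 (-0.11 to 0.54, adjusted p 0.707).

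The Gi-coupled members gave small differences as well. Chrm2 encodes the M2 receptor of the C bouton synapse and of the heart. On J03025_at its signal was 40.6, 34.6, 41.9, 44.4, 37.4, 38.5 and 28.3 on dCIN arrays 1 to 7, and 53.3, 48.2, 37.5, 43.2, 40.6, 41.7 and 40.6 on MN arrays 1 to 7. The MIX arrays had a lowest, median and highest signal of 32.9, 41.0 and 43.7. On 3 of the 7 dCIN arrays the signal lay below every MN array, and on 2 MN arrays (MN 1 and MN 2) above every MIX array. Means were 38.0 ± 5.31 in dCINs, 43.6 ± 5.42 in MNs and 40.0 ± 3.93 on MIX arrays (SD, n = 7, 7 and 8). The dCIN minus MN difference was -0.20 (SE 0.11, 95% interval -0.44 to 0.04), which puts the dCIN signal between 0.736 and 1.02 times that of MNs. It had an adjusted p of 0.581 and an exact permutation p of 0.0752, the smallest of the 21 exact tests run on these probe sets, none of them adjusted. Without the arrays that stand apart it was -0.11 (-0.35 to 0.13, adjusted p 0.798). Against MIX it was -0.08 for dCINs (-0.29 to 0.13, adjusted p 0.962) and 0.12 for MNs (-0.09 to 0.33, adjusted p 0.571), the MN value being 0.02 (-0.22 to 0.25) without those arrays.

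The second Chrm2 probe set, AB017655_s_at, had a lowest, median and highest signal of 34.9, 43.3 and 66.1 in dCINs, 42.0, 48.8 and 52.7 in MNs, and 34.2, 44.5 and 56.5 on MIX arrays. The MN arrays lay within the dCIN range, with 2 dCIN arrays above and 2 below all of them. Means were 47.0 ± 10.4 in dCINs, 48.3 ± 3.60 in MNs and 42.9 ± 7.58 on MIX arrays (SD, n = 7, 7 and 8). For dCIN minus MN the difference was -0.06 (SE 0.13, 95% interval -0.33 to 0.20, adjusted p 0.871, exact permutation p 0.614). Against MIX the differences were 0.12 for dCINs (-0.13 to 0.38, adjusted p 0.944) and 0.19 for MNs (-0.07 to 0.45, adjusted p 0.481, exact permutation p 0.0962). Both Chrm2 probe sets lay on the same side of their medians on 12 of 22 arrays (r = 0.34, and 0.37 over 18 arrays). For the receptor known at C boutons, no difference between MNs and dCINs was called on either probe set under any scaling, and for J03025_at the interval allowed an MN signal of up to 1.36 times that of dCINs.

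Chrm4 encodes the M4 receptor, the main Gi-coupled muscarinic receptor of the striatum. The signals of M16409_at were 19.5, 15.0, 21.2, 20.6, 16.8, 13.9 and 14.6 in dCINs, 17.0, 15.2, 14.2, 16.0, 21.2, 20.4 and 15.5 in MNs, and 18.9, 18.7, 18.3, 20.5, 24.1, 26.1, 17.1 and 15.3 on MIX arrays. The dCIN and MN values covered nearly the same range, and MIX arrays 5 and 6 lay above both groups. Means were 17.4 ± 3.04 in dCINs, 17.1 ± 2.68 in MNs and 19.9 ± 3.60 on MIX arrays (SD, n = 7, 7 and 8). The dCIN minus MN difference was 0.02 (SE 0.13, 95% interval -0.26 to 0.29, adjusted p 0.966, exact permutation p 0.888). Both labelled groups averaged below MIX, by -0.20 in dCINs (-0.46 to 0.07, adjusted p 0.884) and -0.21 in MNs (-0.48 to 0.05, adjusted p 0.437). Neither passed the test, and the 2 differences share the MIX arrays.

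**Figure D2:**
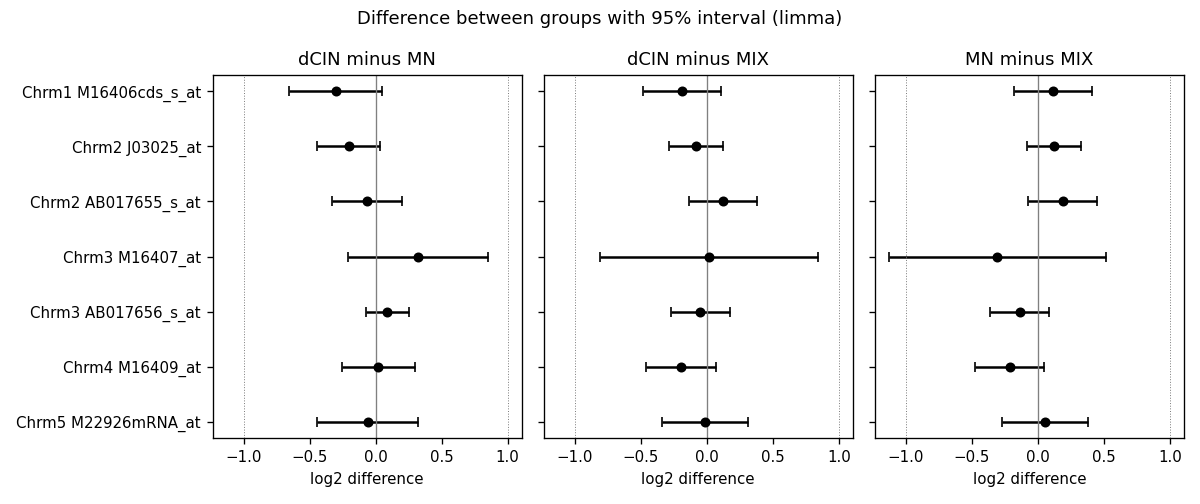
Difference in mean log2 signal (points) with its 95% interval from limma (bars) for the 7 Chrm probe sets, as dCIN minus MN, dCIN minus MIX and MN minus MIX, with dotted lines at -1 and 1. Every interval holds 0, and those of Chrm3 M16407_at are the widest in each panel.

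Read as a family, the receptors showed no common direction. Of the 7 probe sets, 3 were higher and 4 lower in dCINs than in MNs, with a median log2 difference of -0.06 beside -0.03 over all 1050 probe sets. The median size of a difference was 0.09 for the receptors and 0.13 over all probe sets. For dCINs against MIX the median difference was -0.05 (0.02 over all) and for MNs against MIX 0.05 (0.04 over all). The MIX mean fell between those of dCINs and MNs for 4 of the 7 receptor probe sets, and for 35.4% of all probe sets. Ordered by mean log2 signal, MNs came first and dCINs last for Chrm1, Chrm5 and Chrm2 on J03025_at, with MIX between them. For Chrm3 M16407_at dCINs came first and MNs last, and for Chrm3 AB017656_s_at and Chrm4 MIX came first and MNs last. For Chrm2 AB017655_s_at MNs came first and MIX last. No difference between neighbours in these orders passed the test. In RNA from pools of cells, fewer expressing cells and less RNA per cell cannot be told apart.

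**Figure D3:**
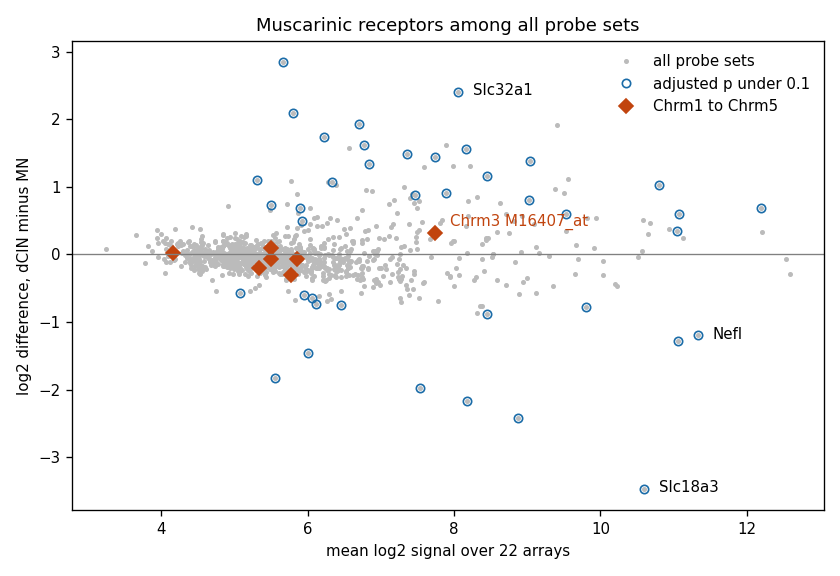
Log2 difference, dCIN minus MN, against the mean log2 signal over 22 arrays for all 1050 probe sets (grey points), the 40 with an adjusted p under 0.1 (blue rings) and the 7 Chrm probe sets (orange diamonds). The receptors lie between -0.30 and 0.32, and 6 of the 7 have a mean log2 signal under 6. The labelled points are Slc18a3 U09211_at (-3.47), Nefl AF031880_at (-1.20) and Slc32a1 AF030253_at (2.40), whose other probe sets X80395cds_s_at (-0.30), M25638_s_at (-0.37) and rc_AA996551_s_at (0.09) were not called.

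The spread between arrays within groups differed among the receptors. For Chrm3 M16407_at the within-group SD was 0.82 on the log2 scale, which 45 of all 1050 probe sets exceeded. This value rests on MIX array 7, without which it was 0.48 and 181 probe sets exceeded it. For the other 6 it ran from 0.18 (Chrm2, J03025_at) to 0.31 (Chrm5), and of these only Chrm5 lay above the median of 0.28 over all probe sets. Array dCIN 7 gave the lowest dCIN signal for 5 of the 7 receptor probe sets, and MN 3 the lowest MN signal for 5 of 7. These were also the dCIN and MN arrays with the lowest median over the whole table, 43.5 and 44.3. The highest medians, 50.9, 50.8 and 50.8, were on dCIN 1, MN 1 and MN 2, and dCIN 1 gave the highest dCIN signal for 3 of 7 receptor probe sets. With array medians subtracted, Chrm1 and Chrm2 J03025_at gave dCIN minus MN differences of -0.29 and -0.19 and unadjusted p of 0.0483 and 0.0474 (adjusted p 0.448 and 0.444, limma). With quantile normalization they gave -0.29 and -0.20 and unadjusted p of 0.0381 and 0.0390 (adjusted p 0.370 for both, limma), so for these probe sets whether the 95% interval holds 0 depends on the scaling. For Chrm1 it depends on single arrays and on a covariate as well.

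**Figure D4:**
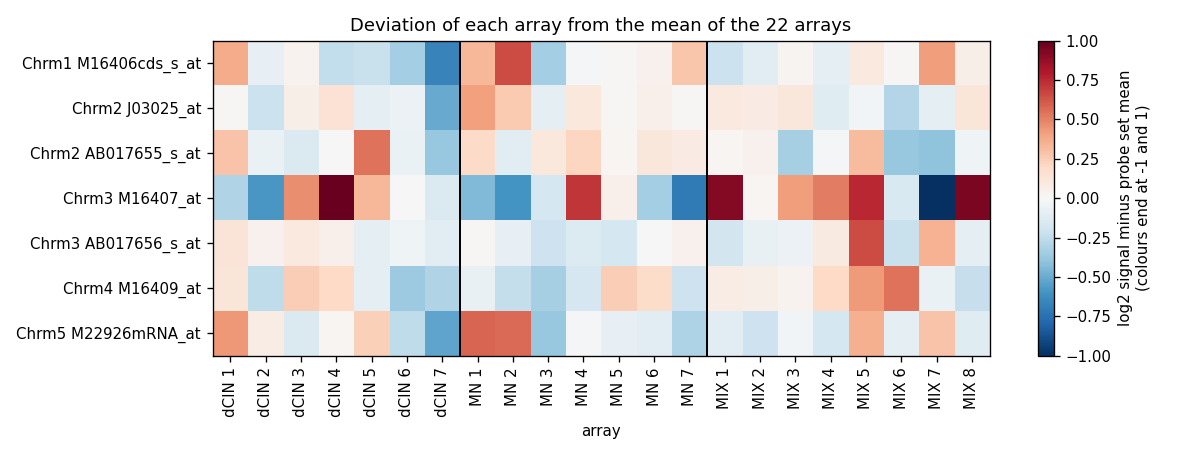
Log2 signal of each Chrm probe set (rows) on each array (columns, dCIN then MN then MIX) minus the mean of the 22 arrays, with red above and blue below the mean and colours ending at -1 and 1. Chrm1 and Chrm5 are both high on MN 1 and MN 2 and low on dCIN 7, and the strongest colours are in the row of Chrm3 M16407_at.

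Among the receptors themselves, the closest pair over the 22 arrays was Chrm1 and Chrm5 (r = 0.73, and 0.54 without the 4 arrays that stand apart). Chrm3 M16407_at ran against Chrm1 (r = -0.45, and -0.17 without them). Over the whole table, the probe sets whose log2 signals were most like those of Chrm1 were Il6, a cytokine (r = 0.90 over 22 arrays, 0.86 over 18), Scnn1b, an epithelial sodium channel subunit (0.86 and 0.83), and Smn1, the survival motor neuron gene (0.84 and 0.74). Chrm5 was closest to S100a1, a calcium-binding protein (0.89 and 0.76), Ctsk, a cathepsin (0.84 and 0.65), and Capn3, a calpain (0.84 and 0.75). Chrm2 on J03025_at was closest to an unnamed probe set, L20823_at (0.77 and 0.62), then Galr3, a galanin receptor (0.77 and 0.69), and Kcnd3, an A-type potassium channel subunit (0.76 and 0.60). On AB017655_s_at it was closest to Egr1, an immediate early transcription factor (0.68 and 0.65), Stxbp2, a syntaxin-binding protein (0.62 and 0.73), and Kcna1 on M26161_at, a delayed rectifier potassium channel subunit (0.62 and 0.62). The Kcna1 probe set that the paper lists as higher in MNs is another one, X12589cds_s_at. The 2 lists for Chrm2 share no gene.

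Chrm3 on M16407_at was closest to the unnamed probe set AF030091UTR#1_g_at (r = 0.75 over 22 arrays, 0.52 over 18), Nrgn, the calmodulin-binding protein neurogranin (0.74 and 0.46), and Kcnj11, an ATP-sensitive potassium channel subunit (0.69 and 0.62). On AB017656_s_at it was closest to Il10, a cytokine (0.86 and 0.65), Ndst1, an enzyme of heparan sulfate synthesis (0.84 and 0.75), and Adam17, a membrane protease (0.81 and 0.38). Chrm4 had the weakest likeness at the top of its list, with Kcnj4, an inward rectifier potassium channel subunit (0.64 and 0.56), Grm5, a metabotropic glutamate receptor (0.63 and 0.61), and Galr1, a galanin receptor (0.61 and 0.53). All these values describe arrays that share their normalization. Among the closest probe sets listed for the receptors, r fell without the 4 arrays for all but Stxbp2 and Kcna1, and most for Adam17. Over 18 arrays only Stxbp2 of those listed was at rank 1, while Il10 moved from rank 1 to 52 and Adam17 from 3 to 326.

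The genes around the receptors were covered in part. Of 5 genes of acetylcholine synthesis, packaging and removal, Slc18a3 was measured, by 2 probe sets. On U09211_at it averaged 566 ± 457 for dCINs, 4040 ± 927 for MNs (SD, n = 7 each) and 2558 ± 709 on MIX arrays (SD, n = 8), and it fell by 3.47 on the log2 scale in dCINs against MNs (SE 0.60, adjusted p 0.00294, limma). The dCIN minus MIX difference was -2.80 (adjusted p 0.0106). X80395cds_s_at gave 39.8 ± 3.18 in dCINs, 50.4 ± 13.8 in MNs and 40.8 ± 3.90 on MIX arrays (dCIN minus MN -0.30, adjusted p 0.439). The dCIN and MN ranges of U09211_at did not overlap. Those of X80395cds_s_at, at signals nearer those of most receptor probe sets, did overlap (35.3 to 44.4 in dCINs and 39.4 to 78.0 in MNs).

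Of 20 genes listed for the Gq branch of Chrm1, Chrm3 and Chrm5, 6 were measured by 13 probe sets. Of these 13, 1 was called higher and 0 lower in dCINs than in MNs, and 0 in either direction against MIX. The list takes protein kinase C genes by family, the atypical form Prkcz among them, and not all need act downstream of Gq. The median difference between dCINs and MNs was -0.02, beside -0.03 over all probe sets. The called probe set was X04139_s_at of Prkcb, protein kinase C beta, which gave 953 ± 179 for dCINs, 396 ± 178 for MNs (SD, n = 7 each) and 507 ± 270 on MIX arrays (SD, n = 8). It rose by 1.38 on the log2 scale in dCINs against MNs (SE 0.26, 95% interval 0.83 to 1.94, adjusted p 0.00509, limma) and lay 1.11 above MIX, with an adjusted p of 0.257. Its other probe sets, which read lower signals, gave 0.31 (K03486_s_at, adjusted p 0.669) and -0.08 (E01789cds_s_at, adjusted p 0.885). Plcb1, Itpr1, Prkca, Prkcz and Kcnq3, for phospholipase C beta, the inositol trisphosphate receptor, further protein kinase C forms and an M-type potassium channel subunit, had no called probe set.

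Of 21 genes of the Gi branch downstream of Chrm2 and Chrm4, 7 were measured by 14 probe sets and 0 were called in any of the 3 comparisons (median dCIN minus MN difference 0.00). At the 3.81%, 0.476% and 0.952% of all probe sets called in these comparisons, 0 of 14 lies near the background, as do the 0 of 7 for the switch-off genes and the 1 of 13 in the Gq branch. The smallest p between dCINs and MNs belonged to U88324_g_at of Gnb1, a G protein beta subunit, whose signal was 464 ± 64.7 for dCINs and 375 ± 85.4 for MNs (SD, n = 7 each), a difference of 0.33 (95% interval 0.02 to 0.63, unadjusted limma p 0.0386, adjusted p 0.415). The other Gnb1 probe sets gave 0.28 (AF022083_s_at), 0.05 (rc_AI227660_s_at), 0.00 (rc_AI230404_s_at) and -0.54 (U88324_at), none of them called, and so did not share a direction. The next smallest p was that of Gnb2, with 77.0 ± 33.6 in dCINs and 112 ± 40.7 in MNs (-0.54, 95% interval -1.06 to -0.02, unadjusted limma p 0.0436, adjusted p 0.439). The G protein-gated potassium channel genes Kcnj3 and Kcnj6, Gnao1 and the calcium channel genes Cacna1a and Cacna1b had no called probe set. Of 13 symbols for kinases, arrestins and RGS proteins that switch receptors off, 3 (Grk2, Arrb1 and Arrb2) were measured by 7 probe sets and 0 were called in any comparison. The 13 symbols give Grk2 and Grk3 under their older names Adrbk1 and Adrbk2 too, so they stand for fewer genes. The smallest p were those of Arrb2, beta-arrestin, on M91590_g_at (227 ± 68.2 in dCINs and 176 ± 83.5 in MNs, difference 0.48, 95% interval -0.14 to 1.10, adjusted p 0.628) and on M91590_at (difference -0.14, adjusted p 0.705).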

How the data were processed

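Labelled or randomly chosen cells were laser microdissected, and their RNA was amplified, biotinylated and hybridized to RN_U34 arrays, 1 animal per array. In making the deposited intensity values, the authors subtracted each array's lowest PM intensity, normalized the 22 arrays by QLT followed by QPN, formed Li-Wong summaries with the Bioconductor package affy (version not given in the sources used here) and removed a universal minimum. They ran from 1 to 8642. Probe sets that Ensembl did not map had been removed, and the genome build is not given in the sources used here. Normalization to a shared distribution means that signals are relative to the rest of each array, so an overall change in RNA cannot be seen. No count of molecules stands behind an intensity, and the number of arrays limits the precision.

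Symbols came from the platform annotation (961 probe sets with 1 symbol, 7 with several, 82 with none), and a check through Entrez IDs against RefSeq changed 0 of them. Probe sets with an s_at suffix can hold probes shared by several transcripts.

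Summaries were log2-transformed and fitted with limma 3.58.1 in R 4.3.3 (lmFit, eBayes, no trend), dCINs against MNs on 14 arrays and the MIX contrasts on 22 arrays with 3 group means. Adjusted p-values (Benjamini-Hochberg) cover all 1050 probe sets. Single values were also compared by two-sided exact permutation tests over all splits of the arrays (3432 or 6435 splits, smallest possible p 0.000583 or 0.000155). Code was tested on simulated data. The named genes were all Chrm probe sets and the 3 probe sets most correlated with each. From 4 lists of pathway genes, those called in any contrast were named, or else up to 2 with the smallest p. Label checks were Slc18a3, Nefl, Slc32a1 and Mbp, and S100b was named as the largest part of the astrocyte sum. Members and lists were chosen with earlier results of these data known. Alternatives were other thresholds, sample sets, scalings, offsets and covariates, and leaving out arrays. Leaving out the 4 arrays that stand apart, and the SD without MIX array 7 and linear-scale gap of Chrm3 M16407_at, were chosen after seeing the data. Figures used matplotlib 3.10.9.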

Additional observations from a re-analysis of the deposited data

Results flagged for a closer look

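On MIX array 7, Chrm3 M16407_at had a signal of 33.7, against 193 to 411 on the other 7 MIX arrays. On the log2 scale, on which the values were tested, the gap to the next array was 0.70 of the group's whole range, above Dixon's critical value of 0.526 for 8 arrays. On the linear scale it was 0.42 of the range, below that value. It was the only value of 21 groups of arrays (7 probe sets in 3 groups) to exceed the critical value on the log2 scale, and chance alone flags about 1 group in 20. The other Chrm3 probe set, AB017656_s_at, was not low on that array (57.4, against a MIX median of 43.0).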

How the results depend on the processing

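The count of receptor probe sets called remained 0 under all 80 alternative settings for the 3 comparisons, and the lowest adjusted p among 521 alternative values was 0.138. The numbers of probe sets called over the whole table were less steady, at 30 to 83 between dCINs and MNs (main value 40), 0 to 68 between dCINs and MIX (5) and 2 to 33 between MNs and MIX (10), and at 31 to 55, 1 to 8 and 2 to 14 with single arrays left out. Of 21 log2 differences, 13 kept their sign throughout.

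The sign turned, with no call on either side and the cause not tested, in these cases. Without the 4 arrays that stand apart, dCIN minus MN was -0.0087 for Chrm4 and 0.15 for Chrm5, dCIN minus MIX -0.33 and 0.10 for Chrm3 (M16407_at and AB017656_s_at) and 0.10 for Chrm5, and MN minus MIX -0.052 for Chrm5. Leaving out the MN arrays of over 200 cells gave the same dCIN minus MN values, -0.0087 and 0.15. With array weights, dCIN minus MN was -0.078 for Chrm4 and 0.049 for Chrm5, dCIN minus MIX -0.19 and 0.059 for the Chrm3 probe sets and 0.051 for Chrm5, and MN minus MIX -0.0026 for Chrm5. With log2 cell number as a covariate, dCIN minus MN was -0.014 for Chrm4 and 0.22 for Chrm5, and dCIN minus MIX 0.069 for Chrm2 J03025_at and 0.23 for Chrm5. With arrays numbered 3 to 7 only, dCIN minus MN was -0.0072 for Chrm4 and 0.043 for Chrm5. With quantile normalization, dCIN minus MN was -0.015 for Chrm4, dCIN minus MIX -0.073 for Chrm3 M16407_at and MN minus MIX -0.014 for Chrm5. An offset of 32 gave -0.040 for dCIN minus MIX of Chrm3 M16407_at.

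With 1 array left out at a time, dCIN minus MN ran from -0.15 to 0.0035 for Chrm2 AB017655_s_at (above 0 without dCIN 7), -0.032 to 0.074 for Chrm4 and -0.14 to 0.030 for Chrm5 (above 0 without dCIN 7, MN 1 or MN 2). Likewise, dCIN minus MIX ran from -0.38 to 0.14 for Chrm3 M16407_at, -0.088 to 0.037 for Chrm3 AB017656_s_at (above 0 without MIX 5) and -0.086 to 0.073 for Chrm5, and MN minus MIX from -0.040 to 0.12 for Chrm5 (below 0 without MN 1 or MN 2).

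The labels do not say what an array number marks, and each array is another animal. Same-numbered dCIN and MN arrays deviated together with r of -0.19 to 0.53, above 0.1 for 5 of 7 numbers. For numbers 1 and 4 alone, the MN array most like the dCIN array bore the same number. Whether same-numbered arrays share a processing day is not known, so the main fit was unpaired and pairing was run as an alternative. A replicate block on the number gave the Chrm3 M16407_at dCIN minus MN difference of 0.32 an unadjusted limma p of 0.00999 and an adjusted p of 0.138. On this probe set dCIN lay above MN in 7 of 7 same-numbered arrays, the most of the receptor probe sets, the others having 2 to 5. How many of all probe sets show 7 of 7 was not counted, so no weight is put on it. The replicate block called 55 probe sets over the whole table and 0 receptors.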
